A study of Mus musculus with 70 samples.

Results

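The report concerns 9 genes of the neurotrophin and GDNF families in mouse dorsal root ganglia, where the cell bodies of the sensory neurons of the trunk and limbs lie. They are the ligands Bdnf and Gdnf, the Trk receptors Ntrk2 and Ntrk3, the p75 receptor Ngfr, the receptor tyrosine kinase Ret, and the Ret co-receptors Gfra1, Gfra2 and Gfra3. Members were all probes that the platform annotation gives to these symbols, which were 20 of the 25697 probes on the array, for 9 of its 16593 symbols. The symbols were named without a threshold on a measured value, but with earlier results of these data known. Of the 20 probes, 19 passed the filter on dim probes (detection p below 0.05 on at least 3 arrays), and the second Gdnf probe (ILMN_2701617) did not. Probes are called here by their array names.

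Ganglia were compared 5 days after axotomy, the cutting of the neurons' axons (label AX5D, read here as day 5), with uninjured ganglia (label NAIVE). The animals came from 9 strains, labelled CAST, WSB, NZO, NOD, DBA, C57, C3H, AJ and 129, and the labels name no transgene, drug, sex or age. Each sample was RNA of 6 ganglia pooled from 3 mice, so replicates are pools and differences between single mice are not seen. There were 35 AX5D and 35 NAIVE arrays, 4 per strain and treatment and 3 per treatment in AJ.

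Neurotrophins such as BDNF are secreted proteins that keep sensory neurons alive and set their properties. BDNF signals through TrkB (the product of Ntrk2), NT-3 through TrkC (Ntrk3), and all neurotrophins bind p75 (Ngfr). GDNF family ligands bind a GFRα co-receptor anchored in the membrane, and the pair then activates Ret. GDNF prefers GFRα1 (Gfra1), neurturin GFRα2 (Gfra2) and artemin GFRα3 (Gfra3). In adult ganglia TrkC marks proprioceptors and other large neurons, Ret with Gfra2 is found in non-peptidergic nociceptors, and Gfra3 is found in part of the peptidergic nociceptors. In ganglia measured whole, fewer cells of a type and less RNA per cell cannot be told apart.

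The tissue label held against markers. Of 13 general neuron markers on the array, 12 passed the filter, and their summed level was 147469 to 172779 on the AX5D arrays and 153052 to 179668 on the NAIVE arrays. Gene by gene, 4 of these 12 rose and 7 fell, with a median log2 response of -0.13. All 9 measured injury markers rose, among them the stress-induced transcription factor Atf3 by 5.56 on the log2 scale (limma adjusted p = 5.05e-62). Macrophage markers moved with treatment in every strain: all 11 measured members rose, with a median log2 response of 2.24 and a summed level of 5746 to 15085 in AX5D and 1210 to 3140 in NAIVE. All 6 measured fibroblast markers rose too (median 0.57), as did 6 of 9 markers of myelinating Schwann cells (median 0.17, 1 lower). Of 9 satellite glia markers 3 rose and 2 fell, of 9 endothelium and pericyte markers 1 rose and 1 fell, of 2 oligodendrocyte markers 1 rose, and none of 8 skeletal muscle or 4 erythroid markers passed the test. Muscle signal differed widely between pools. The summed muscle level had a median of 700 and a highest value of 11819 in AX5D (in NZO). In NAIVE these were 783 and 17860 (in DBA). Over all genes the median response was -0.03. What part the other cell types have in the responses below was not tested. Arrays in runs of 8 neighbouring columns of the deposited table resembled each other (mean residual correlation 0.15 within runs and -0.02 between them), and the labels do not say what a run is. Responses within the 9 runs are therefore given beside those pooled over runs. Strains and treatments were not balanced over the runs. In run 9 the AX5D array was of C3H and the NAIVE arrays were all of other strains. Values within runs thus do not compare the treatments within 1 strain, and they are not separate repeats of the response. They are also not plain differences between the levels of the arrays in a run. Their narrow ranges and shared signs are therefore no independent check of the response.

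Levels are background-corrected, quantile-normalized intensities on the log2 scale, and the response is the AX5D minus the NAIVE mean within a strain, averaged over the 9 strains for the mean response. Tests are limma's moderated tests with Benjamini-Hochberg adjustment over all 17616 probes that passed the filter, and a call is an adjusted p below 0.05. After axotomy 9 member probes rose and 7 fell of 19, which is 84.2% against 59.5% of all probes. By direction the background was 26.4% higher and 33% lower. Responses had 1 sign in all 9 strains for 11 of the 19 member probes, against 32.8% of all probes. The largest rises were those of the ligand Bdnf on 1 of its 3 probes and of the co-receptors Gfra3 and Gfra1. Bdnf probe ILMN_3105417 rose by only 0.30, and probe ILMN_1246842 was not called. Gdnf rose in 3 strains, Ret rose little, and Ntrk2 (1 of 3 probes), Ntrk3, Ngfr and Gfra2 fell (limma). For none of the 19 probes were the 35 AX5D and the 35 NAIVE arrays fully separate, which held for 1.82% of all probes. Strain by strain, 57 of 171 tests were called higher and 34 lower, 53.2% together, against 12.4% higher, 13.4% lower and 25.7% together over all probes. The arrays of the treatments did not overlap within a strain in 95 of 171 cases (55.6%), against 26.5% over all probes. As the members were chosen with earlier results of these data known, these shares describe them and are no test.

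**Figure D1:**
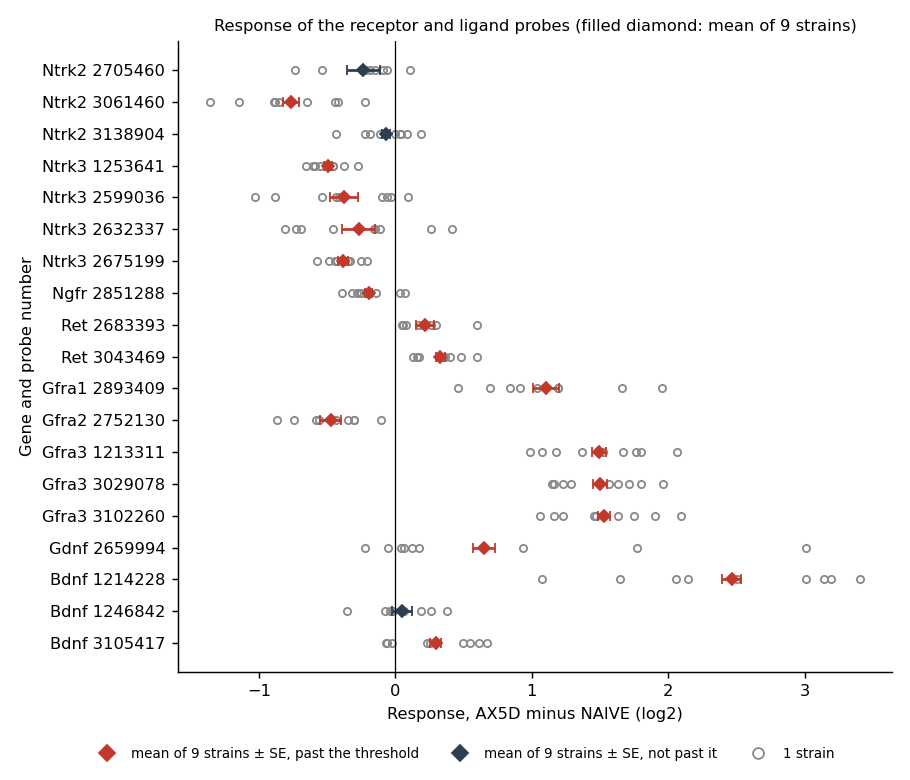
Response of each of the 19 member probes (rows) in log2 units, AX5D minus NAIVE. Diamonds are means over 9 strains with SE, red where the adjusted p was below 0.05, and open circles are single strains. The Gfra3 probes sit near 1.5 with every strain right of 0, the strains of Gdnf and of Bdnf probe ILMN_1214228 spread widely, and the Ntrk3 and Gfra2 means lie left of 0.

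Bdnf, the ligand of TrkB, carried the largest response of the members in the reported fit, on probe ILMN_1214228. In AX5D ganglia its level ran from 7.27 through a median of 8.49 to 9.87, against 5.14, 6.01 and 7.75 in NAIVE ganglia. All AX5D arrays were above background, but only 17 of the 35 NAIVE arrays were. The mean response was 2.46 ± 0.07 (SE) on the log2 scale with adjusted p = 7.03e-41, and within the 9 runs it was 2.13 to 2.72. Without background correction the same contrast gave 1.01 (adjusted p = 2.56e-41), so the size of this response depends on how the background is taken off while its direction does not. Its rank depends on it too: the lowest response of Gfra3 probe ILMN_1213311 under any setting was 1.27, above that 1.01.

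In every strain all AX5D arrays lay above all NAIVE arrays of that strain. DBA had the highest injured level, with 9.65, 9.69, 9.56 and 9.87 in AX5D pools against 6.67, 6.22, 6.21 and 6.05 in NAIVE pools. C57 had the smallest rise, with 8.34, 8.21, 7.90 and 8.48 in AX5D and 6.43, 7.75, 7.13 and 7.34 in NAIVE. The C57 AX5D mean was the second lowest of the 9 strains, and its NAIVE mean was the highest. CAST pools read 8.18, 8.61, 8.49 and 8.22 in AX5D and 6.20, 7.01, 6.79 and 6.90 in NAIVE. AJ pools read 8.68, 9.02 and 9.03 in AX5D and 6.65, 6.76 and 7.15 in NAIVE. C3H pools read 8.29, 8.57, 8.30 and 8.38 in AX5D and 6.01, 6.61, 5.81 and 6.55 in NAIVE. These 5 strains had a measurable naive level on at least 3 arrays each.

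In the other 4 strains no NAIVE array was above background, so only a lower bound of the rise can be given. The bound is the AX5D mean against the higher, per array, of the lowest level above background and the probe's own level. WSB, whose AX5D pools read 8.54, 8.55, 8.61 and 8.53, was at least 6.13-fold higher after axotomy (adjusted p = 3.68e-20). NOD, at 8.25, 8.55, 8.45 and 8.76 in AX5D, was at least 6.03-fold higher (adjusted p = 1.04e-20). The NZO pools, at 8.75, 8.44, 8.78 and 8.35, were at least 5.94-fold higher (adjusted p = 4.19e-21). Strain 129 reached the lowest injured level, 7.27, 8.30, 7.62 and 7.89 in AX5D, and was at least 3.47-fold higher (adjusted p = 1.53e-16). In the order of AX5D means, DBA stood above AJ, AJ above NZO, and C57 above 129 by more than the larger SD of the pair, while the steps between NZO, WSB, NOD, C3H, CAST and C57 were smaller than that.

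**Figure D2:**
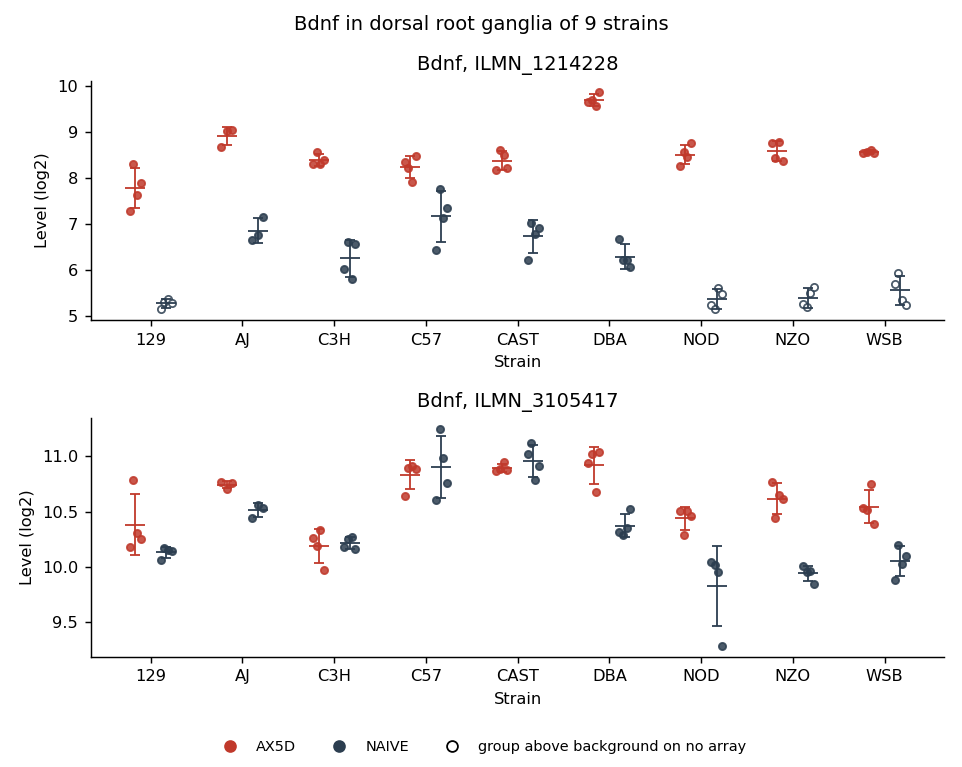
Bdnf level in log2 units for probes ILMN_1214228 (top) and ILMN_3105417 (bottom) in 9 strains, AX5D left and NAIVE right in each strain, with points for arrays and bars for mean ± SD. Open points mark groups above background on no array. On the top panel the AX5D points of every strain lie above its NAIVE points, and on the bottom panel C57 and CAST are high with and without injury.

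Both the response and the naive level of probe ILMN_1214228 differed between strains (F-test adjusted p = 3.81e-10 for the response and 1.43e-15 for the naive level). Against the mean of the other 8 strains the response was lower in C57 by a log2 difference of -1.57 ± 0.21 (SE, adjusted p = 6.74e-07) and in CAST by -0.92 ± 0.21 (adjusted p = 0.00205). It was higher in DBA by 1.06 ± 0.21 (adjusted p = 0.00111) and was called higher in NZO (adjusted p = 0.0216), where it has no size since no NAIVE array was above background. All these differences draw on the 4 strains whose NAIVE arrays were not above background, so their sizes are fitted values. Without background correction C57 (-0.60), CAST (-0.33) and DBA (0.82) kept their calls, while NZO did not (adjusted p = 0.269), and leaving out strain C57 or CAST or any 1 of 4 arrays also ended the NZO call. Naive levels were called higher than in the other strains in C57 (adjusted p = 2.22e-09), AJ (adjusted p = 0.000138) and CAST (adjusted p = 6.59e-05). They were called lower in 129, NOD, NZO and WSB (highest adjusted p = 0.00124), with no size given because none of those NAIVE arrays was above background. The 3 strains with the highest naive level were those with the 3 smallest responses, which are computed from the same naive arrays.

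Probe ILMN_3105417, which the platform annotation ties to another Bdnf transcript record, was above background on all 70 arrays and moved far less. Its level was 9.97, 10.65 and 11.04 (lowest, median, highest) in AX5D and 9.28, 10.20 and 11.25 in NAIVE. The mean response was 0.30 ± 0.04 (SE, adjusted p = 1.36e-09), and 0.16 to 0.36 within runs. NZO rose by 0.67 (adjusted p = 4.1e-06), NOD by 0.61, DBA by 0.55 and WSB by 0.49, and AX5D and NAIVE arrays were separate in these strains. NZO pools read 10.77, 10.44, 10.65 and 10.61 in AX5D against 10.00, 9.96, 9.96 and 9.85 in NAIVE. CAST pools overlapped, at 10.86, 10.89, 10.95 and 10.88 in AX5D and 11.02, 11.12, 10.78 and 10.91 in NAIVE. C57 (-0.07), CAST (-0.06) and C3H (-0.03) did not pass the test, nor did 129 (0.25, adjusted p = 0.0969) and AJ (0.23, adjusted p = 0.26). CAST again had the lower response against the other strains (-0.40 ± 0.12, adjusted p = 0.0291), and NZO the higher (0.43 ± 0.12, adjusted p = 0.0488). Both calls are near the threshold. The CAST call was lost with median scaling (adjusted p = 0.273), without strain DBA, NZO or WSB and without any 1 of 5 arrays, and the NZO call without any 1 of 52 arrays, without strain AJ, C3H, C57 or CAST and with no filter. Naive levels of this probe were high in CAST (0.71 above the others, adjusted p = 2.08e-10) and C57 (0.65, adjusted p = 1.62e-08) and low in NOD (-0.56), NZO (-0.43) and WSB (-0.31).

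The third Bdnf probe, ILMN_1246842, was above background on 5 AX5D and 3 NAIVE arrays, and its response of 0.05 did not pass the test (adjusted p = 0.57). Within runs it was -0.14 to 0.29. Of the other 2 probes, ILMN_1214228 rose by 2.17 more than ILMN_3105417, with that sign in 9 of 9 strains. The difference had permutation adjusted p = 4e-05, from the smallest p the 100000 permutations within strains can give (1e-05), with adjustment over 16 pairs of probes of 1 gene. Where each probe lies on the transcripts was not analysed here.

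Bdnf is transcribed from several starts, and the RefSeq promoter table (build GRCm38.p6) holds 7 windows of 300 bases around them. It also holds 2 windows for Gdnf and 1 each for Gfra1, Ngfr and Ntrk2. Each of these 12 windows was searched for 2 motifs of factors known from injured and active neurons. The first was TGANTCA, a broadened AP-1 pattern in which N is any base, while the AP-1 consensus has C or G there. The other was the full CRE site TGACGTCA bound by CREB and ATF proteins. Both read the same on the other strand, so 1 pass covers both strands, and neither contains the other. The broadened AP-1 pattern stands in 1 member window, at a Bdnf start, and in 7.81% of the 32851 windows of the table. The member match has A as its middle base, so it is not the AP-1 consensus. The CRE letters stand in none of the 12 and in 1.79% of all. A match is a description of letters and not a site, and no match says only that those letters are not in that window. The Bdnf window with the match is shown beside the Gfra1 window, as these are the members with a window that rose most in the mean over strains, with the matching letters in capitals.
Bdnf chr2:109676782-109677081, plus strand, match TGAATCA starting 152 bases before the annotated start: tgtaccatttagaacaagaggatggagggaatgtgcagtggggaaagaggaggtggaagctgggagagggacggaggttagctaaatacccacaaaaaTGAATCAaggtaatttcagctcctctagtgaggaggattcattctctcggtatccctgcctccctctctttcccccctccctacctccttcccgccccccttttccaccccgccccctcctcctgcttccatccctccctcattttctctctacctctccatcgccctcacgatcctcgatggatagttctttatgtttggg
Gfra1 chr19:58455349-58455648, minus strand, no match: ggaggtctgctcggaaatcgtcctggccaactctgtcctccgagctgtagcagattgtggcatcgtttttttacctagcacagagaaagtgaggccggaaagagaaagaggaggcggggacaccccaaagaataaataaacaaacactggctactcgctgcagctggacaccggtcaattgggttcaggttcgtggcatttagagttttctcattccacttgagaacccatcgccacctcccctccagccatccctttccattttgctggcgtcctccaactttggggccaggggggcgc

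Gdnf, the ligand of GFRα1 and Ret, was measured above background almost only in 3 injured strains. Probe ILMN_2659994 was above background on 10 of 35 AX5D arrays, 4 in DBA, 4 in CAST and 2 in C3H, and on 1 of 35 NAIVE arrays, in CAST. DBA pools read 8.0, 8.37, 7.91 and 7.47 in AX5D against 5.04, 4.81, 5.17 and 4.71 in NAIVE (no NAIVE array above background), and were at least 3.93-fold higher (adjusted p = 5.71e-17). CAST pools read 6.50, 6.44, 7.88 and 7.81 in AX5D against 5.30, 5.04, 5.06 and 6.16 in NAIVE, a log2 response of 1.77 ± 0.23 (SE, adjusted p = 6.22e-09). C3H pools read 5.45, 6.81, 5.77 and 5.90 in AX5D against 4.87, 5.20, 5.06 and 5.05 in NAIVE, at least 1.05-fold higher (adjusted p = 0.00141). DBA was high on all 4 injured arrays, CAST split into 2 higher and 2 lower ones, and C3H was only just separate. In AX5D ganglia of 129, AJ, C57, NOD, NZO and WSB no array was above background, and AX5D and NAIVE arrays overlapped in each of these strains.

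The mean response of Gdnf, 0.65 ± 0.08 (SE, adjusted p = 1.2e-10), is thus an average over strains that differ (F-test adjusted p = 1.36e-12). It was 0.35 without DBA (adjusted p = 0.000305) and 0.21 without background correction (adjusted p = 7.95e-10), and 0.20 to 0.85 within runs. Against the mean of the other strains the response was called higher in DBA (adjusted p = 4.72e-12) and in CAST (adjusted p = 0.000227), with no size given because 6 of the strains had no array above background. The response of 129 was called lower (adjusted p = 0.0121), but Gdnf was above background on no array of 129, and the call was lost without strain DBA (adjusted p = 0.149) and without either of 2 single arrays. Naive levels showed no strain difference that passed the test (adjusted p = 0.656). The second Gdnf probe, ILMN_2701617, was above background on 1 NAIVE array and no AX5D array, so it gives no level for Gdnf.

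GDNF is known from Schwann cells after nerve injury, so markers of repair Schwann cells are given beside it, without the 3 members on that list. Of the other 7 measured genes 3 rose and 2 fell (median -0.003), with the matrix protein tenascin C (Tnc) at 1.21 (adjusted p = 4.8e-22). Their summed level was 1856 to 2257 in AX5D against 1393 to 1692 in NAIVE pools of DBA, and 1584 to 2168 in AX5D against 2113 to 2210 in NAIVE pools of CAST. In C3H it was 1369 to 1668 in AX5D and 1537 to 1626 in NAIVE. Among the injured strains with no Gdnf above background, the sum was 1657 to 2062 in 129 and 1353 to 1587 in WSB. It was 1332 to 1446 in AJ, 1250 to 1393 in C57, 1305 to 1597 in NOD and 1035 to 1414 in NZO. DBA was the strain whose AX5D sums lay above all its NAIVE sums. Summed macrophage markers were 10523 to 13033 in injured DBA, 13260 to 15085 in injured CAST and 11562 to 14526 in injured C3H. In the other injured strains they were 13284 to 14059 in WSB, 11927 to 12602 in AJ and 9211 to 11410 in C57. They were 8607 to 11042 in 129, 8564 to 10940 in NOD and 5746 to 7007 in NZO. What part either cell type has in the Gdnf levels was not tested.

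Gfra1, which encodes the co-receptor that GDNF prefers, rose about 2.15-fold over the strains. The level of probe ILMN_2893409 was 6.80, 8.08 and 8.95 (lowest, median, highest) in AX5D against 5.37, 6.95 and 7.61 in NAIVE, and AX5D and NAIVE arrays were separate in 8 of 9 strains. The mean log2 response was 1.10 ± 0.09 (SE, adjusted p = 1.13e-16) and 0.79 to 1.53 within runs, and 0.48 without background correction (adjusted p = 1.68e-18). It passed the test in 7 strains. WSB pools were the highest after injury, at 8.95, 8.66, 8.74 and 8.88 in AX5D against 7.58, 7.11, 6.70 and 7.20 in NAIVE. Strain 129 had the largest response, with 7.97, 8.45, 8.11 and 8.39 in AX5D against 6.65, 5.37, 6.02 and 7.07 in NAIVE. C3H, at 8.03, 7.33, 7.29 and 6.80 in AX5D against 7.03, 6.31, 6.51 and 6.83 in NAIVE, was the only strain whose arrays overlapped. The C3H response (0.70, adjusted p = 0.0532) and that of AJ (0.46, adjusted p = 0.377) did not pass the test.

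Whether the Gfra1 response differs between strains depends on the setting. The F-test did not pass (adjusted p = 0.0716), and it passed without background correction (adjusted p = 0.0112), with array weights (adjusted p = 0.0257), with same-numbered arrays of a strain as a block, without strain C57 and without any 1 of 4 arrays. The response of 129 differed from the other strains by 0.95 ± 0.29 (SE, adjusted p = 0.0444). It was lost without NAIVE replicate 2 of 129 (0.65, adjusted p = 0.271), without 11 other single arrays in turn, without strain AJ, C3H, CAST or DBA, with median scaling, with no filter, with the runs in the fit and without background correction (0.31, adjusted p = 0.112). The naive strain difference (adjusted p = 0.0444) was lost without strain 129 (adjusted p = 0.528), CAST or WSB, without 12 single arrays in turn, with median scaling, with no filter and without background correction. In DBA and CAST, the strains with Gdnf above background on every injured array, Gfra1 rose by 0.92 (adjusted p = 0.00622) and 0.84 (adjusted p = 0.0137). Neither response was shown to differ from that of the other strains (-0.21 in DBA, adjusted p = 0.905, and -0.29 in CAST, adjusted p = 0.675).

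**Figure D3:**
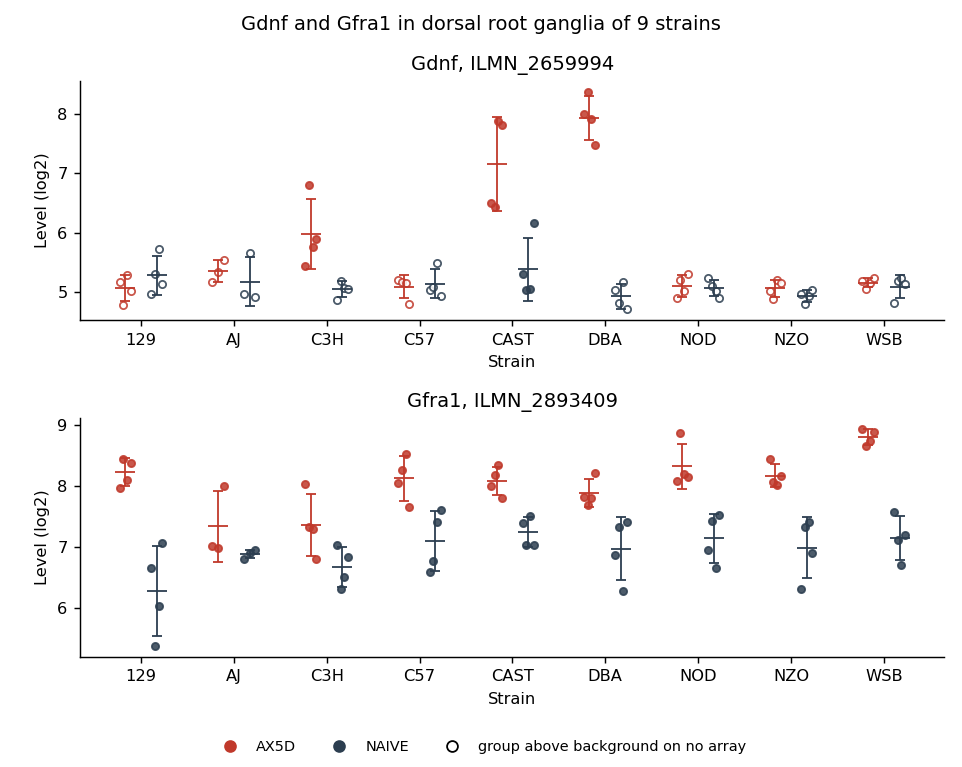
Level in log2 units of Gdnf probe ILMN_2659994 (top) and Gfra1 probe ILMN_2893409 (bottom) in 9 strains, AX5D left and NAIVE right, with points for arrays and bars for mean ± SD. Open points mark groups above background on no array. Gdnf stands clear of the floor in injured DBA and CAST and partly in C3H, while Gfra1 is higher after injury in every strain, least in AJ (0.46).

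Gfra3, the co-receptor for artemin, rose in all 9 strains on all 3 of its probes, with AX5D and NAIVE arrays separate in each strain. Probe ILMN_1213311 ran from 10.29 through 11.38 to 12.34 in AX5D against 8.59, 9.85 and 11.36 in NAIVE. The mean responses were 1.49 ± 0.05, 1.5 ± 0.05 and 1.53 ± 0.05 (SE, probes ILMN_1213311, ILMN_3029078 and ILMN_3102260, highest adjusted p = 1.08e-34), equal to 2.81-fold, 2.83-fold and 2.88-fold. Within runs they lay between 1.27 and 1.71. No pair of these probes was shown to differ in its response, with permutation adjusted p from 0.511 to 0.961 over the 3 pairs. Without background correction and on the authors' deposited matrix, ILMN_1213311 minus ILMN_3029078 did pass that test, as given in the last section.

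The treatment groups overlap over all strains because the strains differ so much in their naive level. On probe ILMN_1213311, CAST pools read 12.05, 12.10, 12.28 and 12.29 in AX5D against 11.08, 11.04, 10.76 and 11.12 in NAIVE. DBA pools read 10.54, 10.50, 10.42 and 10.29 in AX5D against 8.95, 9.09, 9.03 and 8.59 in NAIVE. The AX5D pools of DBA thus lay below the NAIVE pools of CAST, and those of C57 (10.76, 10.78, 11.09 and 10.62) overlapped them. Against the other strains the naive level was higher in CAST by 1.26 (adjusted p = 1.16e-15) and in NOD by 1.03 (adjusted p = 1.24e-11), and it differed by -1.08 in DBA (adjusted p = 2.74e-12) and -0.79 in WSB (adjusted p = 2.45e-08). The other 2 probes gave the same sign in each of these 4 strains, with 1.05 and 1.19 in CAST, 1.27 and 1.10 in NOD, -1.15 and -1.06 in DBA and -0.89 and -0.84 in WSB. In the naive order of probe ILMN_1213311, CAST and NOD did not differ by more than the larger SD of the pair, nor did 129 and C3H, C57 and NZO, or NZO and AJ. The steps from NOD to 129, from C3H to C57, from AJ to WSB and from WSB to DBA were larger than that.

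The size of the Gfra3 rise differed between strains too (F-test adjusted p = 0.000195, 0.0157 and 0.000108 for the 3 probes). WSB rose most, with 11.21, 11.19, 11.38 and 11.16 in AX5D against 9.17, 9.40, 9.21 and 8.92 in NAIVE, a response of 2.06. NOD rose least on this probe, with 11.76, 11.76, 11.94 and 11.70 in AX5D against 10.42, 10.69, 10.72 and 11.36 in NAIVE, a response of 0.99. Against the other strains WSB was higher by 0.64 ± 0.15 (SE, adjusted p = 0.0045) and by 0.64 ± 0.14 on probe ILMN_3102260 (adjusted p = 0.00236). Probe ILMN_3029078 gave 0.52 ± 0.17 and did not pass (adjusted p = 0.051, and past the threshold under several alternatives), and its F-test was lost without WSB (adjusted p = 0.0609). NOD differed by -0.56 on ILMN_1213311 and by -0.53 on ILMN_3102260, which did not pass (adjusted p = 0.0616 and 0.0615) and passed with the runs in the fit, without strain C57 or CAST and without any 1 of 4 arrays.

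**Figure D4:**
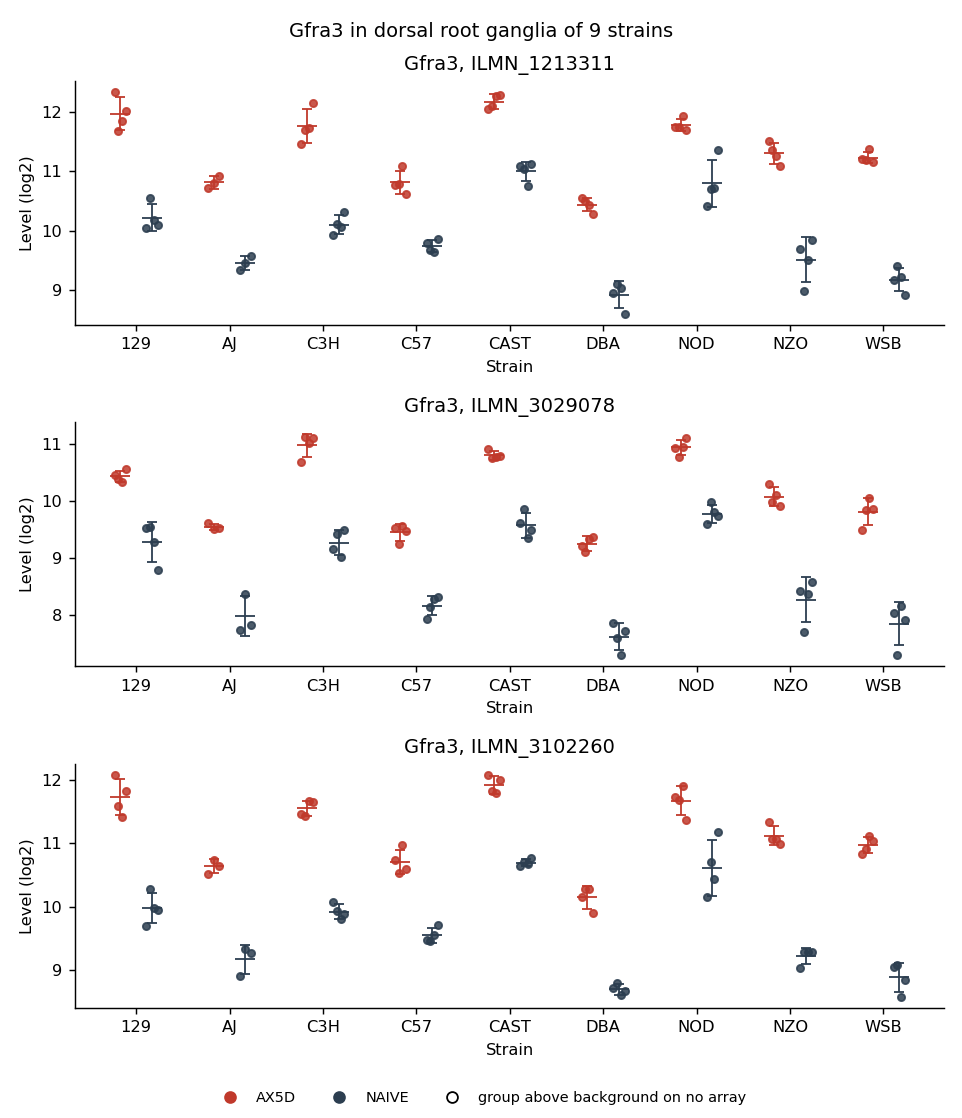
Gfra3 level in log2 units on 3 probes (panels) in 9 strains, AX5D left and NAIVE right, with points for arrays and bars for mean ± SD. In every strain and panel the AX5D points lie above the NAIVE points, and the naive level is high in CAST and NOD and lowest in DBA on all 3 panels.

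Ret, the kinase shared by the GFRα co-receptors, rose by less than any co-receptor that rose. Probe ILMN_3043469 read 12.50, 12.92 and 13.30 (lowest, median, highest) in AX5D and 12.23, 12.59 and 13.11 in NAIVE. The mean response was 0.33 ± 0.03 (SE, adjusted p = 1.63e-14), positive in 9 of 9 strains and called in 6, and 0.15 to 0.43 within runs. Strain 129 rose by 0.60 (adjusted p = 3.31e-07) and CAST by 0.48 (adjusted p = 2.66e-05), while C3H (0.13), C57 (0.16) and NOD (0.18) did not pass the test. Probe ILMN_2683393 gave 0.22 ± 0.07 (SE, adjusted p = 0.00439), and 1 strain, CAST, was called on it (0.60, adjusted p = 0.0159), a call lost without any 1 of 3 CAST arrays. Within runs the response of this probe was -0.02 to 0.59, positive in 8 of 9. Neither probe showed a strain difference of the response that passed the test (adjusted p = 0.0619 and 0.809). Naive Ret was higher in C57 than in the other strains on probe ILMN_3043469 (0.34, adjusted p = 0.000104) and lower in WSB (-0.21, adjusted p = 0.0211).

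Gfra2, the co-receptor for neurturin, was barely measured. Its probe ILMN_2752130 was above background on 1 AX5D and 8 NAIVE arrays, with levels of 4.81, 5.13 and 5.99 in AX5D and 4.94, 5.57 and 6.68 in NAIVE. The fitted response was -0.47 ± 0.08 (SE, adjusted p = 2.59e-07), negative in 9 of 9 strains and in each of the 9 runs, and -0.14 without background correction (adjusted p = 5.39e-08). Of the 3 strains called, NOD was at least 1.12-fold lower after axotomy (adjusted p = 0.00246) and C3H at least 1.01-fold lower (adjusted p = 0.00974), and WSB (adjusted p = 0.0382) had no bound above 1. The WSB call was lost with median scaling, with the runs in the fit and without any 1 of 5 arrays, and the C3H call without 1 array. The bounds are close to 1, so the arrays give a direction for Gfra2 and almost no size.

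Among the neurotrophin receptors, Ntrk2 gave different results on its probes. Probe ILMN_3061460 fell in AX5D, with 8.20, 8.69 and 9.37 (lowest, median, highest) against 8.38, 9.37 and 10.52 in NAIVE. The mean response was -0.76 ± 0.06 (SE, adjusted p = 2.18e-18), negative in 9 of 9 strains, and -0.84 to -0.52 within runs. Arrays were separate in 8 of 9 strains, all but NOD. Probe ILMN_3138904, annotated to the same transcript record, read 10.92, 11.39 and 11.75 in AX5D and 11.07, 11.42 and 11.82 in NAIVE, a response of -0.07 ± 0.03 that did not pass the test (adjusted p = 0.0565). It passed without strain AJ, C3H, DBA, NOD or WSB, without any 1 of 23 arrays, with array weights and with the runs in the fit, and was -0.30 to 0.05 within runs. Probe ILMN_2705460, annotated to another record, gave -0.23 ± 0.12 (adjusted p = 0.0837), and passed without any 1 of 3 arrays and with same-numbered arrays of a strain as a block. Within runs it was -0.36 to 0.36.

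Probe ILMN_3061460 fell by 0.70 more than probe ILMN_3138904 (log2 difference -0.70), in 9 of 9 strains, and the response of probe ILMN_2705460 was 0.53 above that of probe ILMN_3061460, with that sign in 8 of 9 strains. Both pairs had permutation adjusted p = 4e-05. The fall of probe ILMN_3061460 was largest in WSB, at 8.27, 8.70, 8.27 and 8.29 in AX5D against 9.37, 9.95, 9.76 and 9.88 in NAIVE. AJ showed the smallest, at 9.36, 9.10 and 9.22 in AX5D against 9.58, 9.37 and 9.40 in NAIVE. WSB differed from the other strains by -0.67 ± 0.18 (adjusted p = 0.0147), and the F-test over strains (adjusted p = 0.00591) was lost without WSB (adjusted p = 0.0789). The WSB call itself was lost without any 1 of 3 arrays and with the runs in the fit (adjusted p = 0.0592). On probe ILMN_3138904 it was CAST that differed, with 10.94, 11.34, 11.19 and 11.26 in AX5D against 11.68, 11.53, 11.59 and 11.67 in NAIVE. The CAST response of -0.44 ± 0.09 (SE, adjusted p = 7.66e-05) differed from the other strains by -0.42 ± 0.09 (adjusted p = 0.00173), a call lost with median scaling (adjusted p = 0.0882). The F-test over strains (adjusted p = 0.00363) was lost with median scaling (adjusted p = 0.171) and without CAST (adjusted p = 0.146).

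Ntrk3, the receptor of NT-3, fell in every strain on its best measured probe. Probe ILMN_1253641 read 10.85, 11.14 and 11.53 in AX5D against 11.24, 11.64 and 12.06 in NAIVE, and arrays were separate in 9 of 9 strains. The mean response was -0.49 ± 0.03 (SE, adjusted p = 3.37e-22), and -0.63 to -0.41 within runs. It was called in all 9 strains, from -0.66 in AJ (adjusted p = 1.81e-06) to -0.28 in NOD (adjusted p = 0.0202). The NOD call was lost with median scaling (adjusted p = 0.0825), with NOD arrays fitted alone and without any 1 of 3 arrays. Probe ILMN_2675199, annotated to the same record, gave -0.38 ± 0.04 (adjusted p = 4.57e-15), was -0.69 to -0.29 within runs and was called in 7 strains, and the small difference between the pair passed (-0.11, permutation adjusted p = 0.00538, negative in 8 of 9 strains). No strain difference of the Ntrk3 response passed the F-test on any of its 4 probes (adjusted p from 0.341 to 0.555).

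The other 2 Ntrk3 probes, annotated to another record, were dim. Probe ILMN_2599036 gave -0.38 ± 0.10 (SE, adjusted p = 0.00123), and -0.13 without background correction (adjusted p = 0.00108). Within runs it was -0.93 to 0.16, positive in 3 of 9. It was above background on no CAST array, with and without injury, while all arrays of the other 8 strains were above it. The naive level of CAST was called lower than that of the other strains (adjusted p = 5.84e-12), with no size given for a level not above background. The other probe of this record, ILMN_2632337, was likewise above background on no CAST array and called lower in naive CAST (adjusted p = 0.00214), and it was above background on no injured array of DBA or NZO either. On the other record, probes ILMN_1253641 (0.08, adjusted p = 0.383) and ILMN_2675199 (-0.24, adjusted p = 0.00839) gave no such gap for naive CAST, and how well each probe matches each strain's sequence was not analysed here. Probe ILMN_2632337 gave -0.27 ± 0.12 (adjusted p = 0.0493), a call lost in 41 of the fits that leave out 1 array, without 6 of the strains in turn, without background correction and with the runs in the fit (-0.10, adjusted p = 0.325). Within runs it was -0.79 to 0.39, positive in 3 of 9. Markers of large-diameter neurons, the group in which TrkC is known, fell with Ntrk3: all 10 measured genes were lower, with a median of -0.85. Their summed level was 16876 to 39659 in AX5D and 29079 to 62179 in NAIVE, and parvalbumin (Pvalb), a marker of proprioceptors, changed by -0.76 (adjusted p = 5.98e-28).

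**Figure D5:**
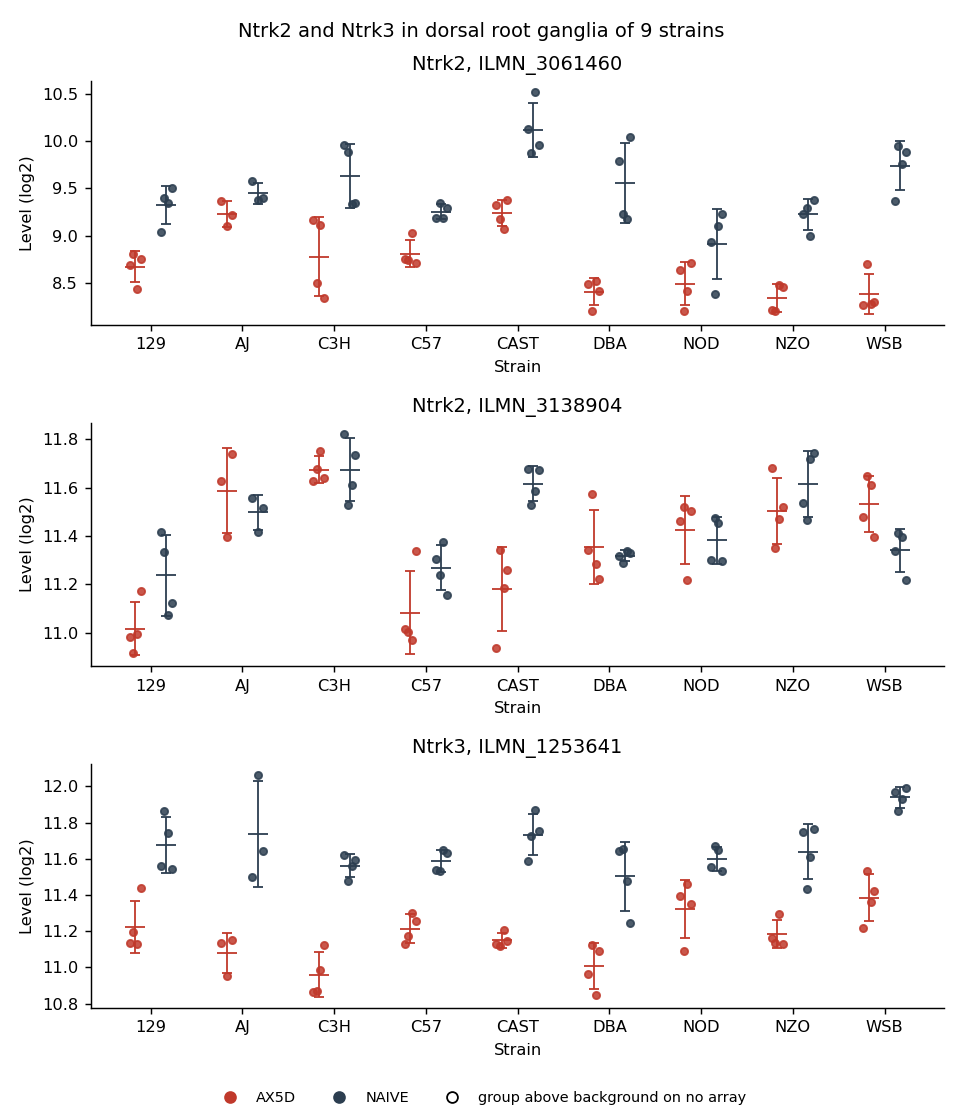
Level in log2 units of Ntrk2 probes ILMN_3061460 (top) and ILMN_3138904 (middle) and Ntrk3 probe ILMN_1253641 (bottom) in 9 strains, AX5D left and NAIVE right, with points for arrays and bars for mean ± SD. The top and bottom panels show lower AX5D points in nearly every strain, and on the middle panel the treatments are separate only in CAST.

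Ngfr, the p75 receptor, fell little. Probe ILMN_2851288 read 13.27, 13.79 and 14.05 in AX5D against 13.64, 13.94 and 14.31 in NAIVE, a mean response of -0.20 ± 0.03 (SE, adjusted p = 3.44e-09), and -0.30 to -0.11 within runs. It was called in 6 strains, with C3H at -0.39 (adjusted p = 6.59e-05), and not in NZO (0.07), 129 (0.03) or CAST (-0.14). The NOD call was lost with median scaling, with no filter, with NOD arrays alone and without any 1 of 5 arrays, the AJ call with median scaling, with same-numbered arrays of a strain as a block and without any 1 of 2 arrays, the WSB call with median scaling, and the C57 call with the runs in the fit. Responses differed between strains (F-test adjusted p = 0.0111), which was lost with median scaling (adjusted p = 0.286), without 129 (adjusted p = 0.0786) and without NZO (adjusted p = 0.116). The NZO response was above the others by 0.30 ± 0.08 (adjusted p = 0.0365), a call lost with median scaling, with no filter, with same-numbered arrays of a strain as a block, without strain AJ, C3H, DBA or WSB and without any 1 of 6 arrays. Naive Ngfr was highest in C57 (0.25 above the others, adjusted p = 0.00103) and lowest in NOD (-0.25, adjusted p = 0.00119).

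Over the 19 probes, the naive level differed between strains for 16 (84.2%, against 56.3% of all probes), the injured level for 17 (89.5%, against 60.3%) and the response for 9 (47.4%, against 14.3%). Those 9 were all 3 Gfra3 probes, 2 each of Ntrk2 and Bdnf, Gdnf and Ngfr. Of 171 tests of a strain's response against the other strains 9 were called higher and 6 lower (8.77% together, against 1.31%, 1.39% and 2.69% of all probe-by-strain tests). Of 171 tests of a naive level 28 were called higher and 32 lower (35.1% together, against 10.6%, 8.69% and 19.3%). These shares too are descriptions of members chosen with earlier results of these data known.

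The ligand and receptor lists held further genes of both families. Gfra4, the co-receptor for persephin, fell by 0.84 on the log2 scale (response -0.84 ± 0.07 SE, adjusted p = 4.04e-16), was called lower in 8 of 9 strains and was not called in NZO (-0.46, adjusted p = 0.112). The GDNF co-receptors outside the GFRα family rose, Ncam1 by 0.42 (adjusted p = 1.94e-15) and the heparan sulfate proteoglycan Sdc3 by 0.34 (adjusted p = 1.72e-15), each with a positive response in 9 of 9 strains. Artn, the ligand of GFRα3, was above background on 3 AX5D and 3 NAIVE arrays and did not pass the test (-0.003, adjusted p = 0.972). Sortilin (Sort1), a partner of p75 for pro-neurotrophins, changed by -0.12 (adjusted p = 1.77e-05), and its relative Sorcs1 did not pass (-0.05, adjusted p = 0.362). The mean response was 0.17 for the relative Sorcs2 (adjusted p = 0.0377) and 0.10 for Sorcs3 (adjusted p = 0.0246). Sorcs2 was called in no single strain. Sorcs3 was called in strain 129 alone (0.87, adjusted p = 1.42e-08) and was positive in 5 of 9 strains. Its response differed between strains (F-test adjusted p = 1.15e-05). Ntf5, Nrtn, Pspn and Gfral did not pass the filter on dim probes, and Ntf3 was not analysed here. With 1 probe per gene, 3 of 8 measured neurotrophin genes rose and 3 fell (median -0.06), and 6 of 9 measured GDNF family genes rose and 2 fell (median 0.34). Over all probes 26.4% rose and 33% fell, and shares over all genes are not given here. Counts on lists this short are descriptions only.

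Of 24 measured adaptor and signalling genes of Trk and Ret, 6 rose and 8 fell (median -0.03), shares near those of all probes (26.4% higher and 33% lower). The adaptor Grb10 rose by 0.93 (adjusted p = 5.11e-36) and the GTPase Nras by 0.41 (adjusted p = 1.03e-24), while Shc1, an adaptor that binds activated Trk and Ret, changed by -0.41 (adjusted p = 1.02e-21). Among 13 negative regulators of receptor kinases 3 rose and 7 fell (median -0.16), with Lrig1, which restrains Ret in mouse neurons, at 0.96 (adjusted p = 8.16e-29), the phosphatase Dusp6 at 0.36 (adjusted p = 4.92e-16) and Spry3 at -0.81 (adjusted p = 2.17e-28). Of 9 partners of p75 4 rose and 3 fell (median -0.05), with Maged1, which binds p75, at 0.34 (adjusted p = 1.2e-19), Bex3 at -0.26 (adjusted p = 8.42e-14) and the co-receptor Lingo1 at -0.69 (adjusted p = 1.16e-18).

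Markers of the neuron types that carry these receptors were mostly lower after axotomy. Of 13 measured transcription factors of sensory neuron subtypes 10 fell and 2 rose (median -0.50), with Etv1, which NT-3 is known to induce in proprioceptors, at -1.24 (adjusted p = 5.74e-27), Tlx3 at -0.51 (adjusted p = 1.76e-18) and Maf at -0.86 (adjusted p = 1.01e-17). Markers of non-peptidergic nociceptors, in which Ret and Gfra2 are known, fell in 7 of 8 and rose in 0 (median -1.14), led by Mrgprd at -1.56 (adjusted p = 2.98e-32), Scn11a at -0.81 (adjusted p = 4.44e-32) and Prkcq at -1.10 (adjusted p = 5.69e-31). Their summed level was 14265 to 31244 in AX5D and 32298 to 44453 in NAIVE. Markers of peptidergic nociceptors, part of which carry Gfra3, fell in 4 of 5 (median -0.90, Tac1 at -0.94 with adjusted p = 3.91e-31, Scn10a at -0.99 with adjusted p = 9.92e-29), and the neuropeptide Adcyap1 rose by 1.89 (adjusted p = 4.11e-55). The summed level of that list was 16577 to 25467 in AX5D and 20857 to 28972 in NAIVE. All 4 measured markers of C-low-threshold mechanoreceptors fell (median -0.76, Th at -1.33 with adjusted p = 1.87e-23). Ret and Gfra3 thus rose while most markers of the neurons in which they are known fell, and Ntrk3 and Gfra2 fell along with those markers.

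The genes whose group means followed each member most closely were listed by Pearson's r over the 18 strain and treatment means. These means share normalization and the axotomy response, so r describes likeness and has no test. Gdnf stood nearest to Btc (r = 0.93), Tal1 (r = 0.89) and Gfap (r = 0.87). Gfra3 was nearest to Slc37a1 (r = 0.92), Mras (r = 0.90) and Akap6 (r = 0.90), and Gfra1 to Il17ra (r = 0.93), Tmem63c (r = 0.92) and Crmp1 (r = 0.92). Ntrk3 lay closest to Lrsam1 (r = 0.95), Apbb3 (r = 0.94) and Scn8a (r = 0.94), and Ret to Rnf10, Rbfox2 and Arrb1 (r = 0.88 each). Gfra2 was nearest to AI413582 (r = 0.89), Ebf3 (r = 0.88) and Iqgap3 (r = 0.87), and Ngfr to Tmx4 (r = 0.85), Eml1 (r = 0.83) and Fem1al (r = 0.83). Bdnf, on probe ILMN_3105417, had Dmtf1 (r = 0.89), Tex264 (r = 0.81) and 1700123O20Rik (r = 0.80), and Ntrk2, on probe ILMN_3138904, had Zfp24 (r = 0.80), Ankrd12 (r = 0.76) and Mtx1 (r = 0.76).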

How the data were processed

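Levels come from the authors' deposited table of non-normalized Illumina array intensities, which gives a detection p-value (as deposited) beside each intensity; the scanner software's settings are not stated. Per the labels' protocols, RNA was amplified to biotin-labelled cRNA. Intensities ran from 164 to 53947, with array medians of 253 to 392 and 13147 to 14721 probes with a detection p below 0.05 per array. Of 25697 probes 23978 had 1 symbol, 1719 had none and none had several. The authors' deposited log2 matrix, when set against uncorrected intensities that were quantile-normalized and logged here, differed by at most 0.027, and was used as an alternative.

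Background was corrected with limma's nec from the detection p-values (offset 16), followed by quantile normalization and log2, in R 4.3.3 with limma 3.58.1. Probes with a detection p below 0.05 on at least 3 arrays were kept (17616). One fit held the 18 group means over 70 arrays (52 residual degrees of freedom), with a trended prior, and responses, differences of a strain from the other strains and F-tests over strains were contrasts of it, adjusted over all kept probes by Benjamini-Hochberg. Probes of 1 gene were compared by permuting the difference of their levels within strains (100000 permutations, two-sided, Python 3.11.15, numpy 2.4.6). The fit was tested on simulated data. P-values measure the spread between these pools, and their number limits the precision. Named genes were all member probes, the other genes of the neurotrophin and GDNF lists, up to 3 genes per further list with the smallest p, and 3 genes per member by likeness. Members and lists were chosen with earlier results of these data known. Alternatives were no background correction, the deposited matrix, median scaling, other filters, array weights, 1 probe per gene, replicate and run blocks, and leaving out each array, each strain or all other strains. Replicate numbers do not pair the samples: over 34 same-numbered pairs the correlation of deviations was -0.19 to 0.39 (median 0.02), over 0.1 in 10. The table holds 2 columns that no label maps to a sample, and they were not used.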

Additional observations from a re-analysis of the deposited data

Results flagged for a closer look

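The response to axotomy differed between strains (limma F-test, adjusted p) for 9 member probes. These were Ntrk2 ILMN_3061460 (0.00591) and ILMN_3138904 (0.00363), Ngfr (0.0111), Gfra3 ILMN_1213311 (0.000195), ILMN_3029078 (0.0157) and ILMN_3102260 (0.000108), Gdnf ILMN_2659994 (1.36e-12), and Bdnf ILMN_1214228 (3.81e-10) and ILMN_3105417 (9.2e-05).

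Of 304 groups of 4 arrays, 1 array stood far from the other 3 in 15, and chance flags about 1 in 20 groups. In injured ganglia, Ntrk2 ILMN_3061460 read 9.02 in C57 replicate 3 (others 8.71 to 8.75) and 8.7 in WSB replicate 2 (others 8.27 to 8.29). Ntrk2 ILMN_3138904 read 11.34 in C57 replicate 4 (others 10.97 to 11.02), and Ntrk3 ILMN_2632337 read 4.82 in NZO replicate 3 (others 5.58 to 5.72). Ret ILMN_3043469 read 12.5 in WSB replicate 1 (others 12.85 to 12.88), and Gfra1 read 8.88 in NOD replicate 2 (others 8.08 to 8.20). Gdnf ILMN_2659994 read 4.8 in C57 replicate 4 (others 5.16 to 5.21), not above background. Bdnf ILMN_1246842 read 5.19 in C3H replicate 2 (others 5.85 to 5.87), and Bdnf ILMN_3105417 read 10.64 in C57 replicate 1 (others 10.88 to 10.91).

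In naive ganglia, Ntrk3 ILMN_2675199 read 10.17 in 129 replicate 4 (others 10.35 to 10.38). Ret ILMN_2683393 read 8.19 in C3H replicate 3 (others 8.77 to 8.84), 8.33 in C57 replicate 1 (others 8.94 to 8.98) and 9.69 in NOD replicate 4 (others 8.82 to 8.95). Gfra3 ILMN_3102260 read 9.03 in NZO replicate 1 (others 9.28 to 9.29), and Bdnf ILMN_3105417 read 9.28 in NOD replicate 4 (others 9.96 to 10.04).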

How the results depend on the processing

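Over 90 settings, 3 of the 19 mean responses changed their call (Ntrk2 ILMN_2705460 and ILMN_3138904, Ntrk3 ILMN_2632337), and of 607 single-probe results 121 changed a call under any setting. With median scaling, 1660 of all probes differed between strains in the response (2520 in the reported fit) and 2802 probe-by-strain response differences passed (4267). With 1 probe per gene the member counts were 8 mean responses (16), 49 responses by strain (91), 5 strain differences of the response (9), 8 of the naive level (16), 8 of the injured level (17) and 25 naive differences by strain (60), since fewer probes were counted. That setting held 9 member probes, 1 for each member. Its shares over all genes are not given here, so these counts are not set against a background. Without strain CAST 19928 naive differences passed over all probes (30524). Without background correction and with the deposited matrix, 13 pairs of probes of 1 gene differed in response (6), and the difference of Gfra3 ILMN_1213311 minus ILMN_3029078 turned from -0.01 to 0.20 and 0.21 (permutation adjusted p = 0.000131 and 0.000116); the cause was not tested. Leaving out 1 array at a time gave 15 to 18 mean responses called, 89 to 93 by strain, 9 to 10 strain differences of the response, 14 to 16 of the naive and 16 to 17 of the injured level, 11 to 19 response and 56 to 61 naive differences by strain, and 5 to 6 probe pairs. Over all probes the same drops gave 10292 to 10553, 39941 to 41471, 2279 to 2669, 9576 to 10065, 10269 to 10761, 3823 to 4549 and 29393 to 30918 calls in that order. With the replicate number as a block, 16 mean responses, 91 responses by strain, 9 strain differences and 15 response differences passed, and none of 591 single-probe results changed its call. With same-numbered arrays of a strain as a block the counts were 16, 94, 10 and 15, and with the runs as a block 16, 95, 9 and 21. Over all probes these counts were 10474, 40780, 2520 and 4267 in the reported fit. They were 10485, 40855, 2494 and 4248 with the replicate number as a block. Same-numbered arrays as a block gave 10276, 39081, 2122 and 3805, and the runs as a block 10490, 42424, 2625 and 4311. Dim probes limit the size of a response: leaving out the background correction changed the mean response by over 1.5 times for Bdnf ILMN_1214228 and ILMN_1246842, Gfra1, Gdnf, Gfra2, Ntrk2 ILMN_2705460 and Ntrk3 ILMN_2599036 and ILMN_2632337.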
